A study of Homo sapiens with 4 samples.

Results

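Replication-independent histone variants were examined as 10 genes chosen by name among the 59050 genes counted in each library. They comprise 6 genes of H2A variants (H2AFX, H2AFZ, H2AFV, H2AFY, H2AFY2 and H2AFJ), the pair of H3.3 genes (H3F3A and H3F3B) and 2 genes of linker histone variants (H1F0 and H1FX). All 10 were present in the counts, and 9 had enough counts to be tested. The exception was H2AFY2, with 10 and 7 counts in the untreated libraries and 8 and 1 in the treated ones. RNA-seq had been done on HepG2, a cell line from a human liver tumor, in 4 libraries. Of these, 2 came from untreated cells (0 h), and 2 from cells kept for 24 h in 1 ug/ml of the DNA-damaging drug doxorubicin. The titles name the untreated libraries nop53 and the treated ones p53, and the design text ties these names to the drug. The labels conflict in places, since the treatment tag of the treated libraries reads p53-miRNA and the treatment protocol of the untreated libraries also describes the doxorubicin treatment. The groups were therefore taken from the titles and the design text, and every comparison of treated with untreated cells rests on them. The mRNA was purified on poly-T beads in all 4 libraries. Nothing in the labels says whether replicates were separate cultures, so every p-value measures the spread between these libraries only.

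Nucleosomes wrap DNA around histones H2A, H2B, H3 and H4, and linker histone H1 binds outside. The bulk of these proteins comes from replication-dependent genes, grouped in clusters such as HIST1 on chromosome 6, which are expressed mainly in S phase and whose short, intronless mRNAs end in a conserved stem-loop in place of a poly(A) tail. Variant histones are made from genes that stand outside the clusters, in general from polyadenylated mRNAs, through the whole cell cycle and in cells that no longer divide. Their proteins replace the bulk histones at promoters, enhancers, damaged DNA or silent chromatin, and are placed there by dedicated chaperones and remodelling complexes.

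The stem-loop is the element that separates the 2 kinds of histone mRNA, so it was searched for in the transcripts of GENCODE release 44 (GRCh38). The search took 16 bases on the sense strand, made of a 6-base stem that begins with GG, a 4-base loop that begins with TTT, and the reverse complement of the stem. A match was found in 1 of the 10 variant genes, H2AFX, against 50 of 55 HIST1 genes (90.9%) and 97 of 19676 protein-coding genes (0.493%). The match in H2AFX lies at chr11:119094893-119094918 on the minus strand, and it is shown with those of the HIST1 gene with the most counts in each class. These lie at chr6:26055740-26055764 (HIST1H1C, minus strand), chr6:26124664-26124689 (HIST1H2AC, plus strand), chr6:27146361-27146386 (HIST1H2BK, minus strand), chr6:27810511-27810536 (HIST1H3H, plus strand) and chr6:27139649-27139674 (HIST1H4I, plus strand). Capitals mark the stem-loop, and the bases beside it are in lower case.
H2AFX: acaaaGGCCCTTTTAAGGGCCaccac
HIST1H1C: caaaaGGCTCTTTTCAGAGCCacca
HIST1H2AC: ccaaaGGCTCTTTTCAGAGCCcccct
HIST1H2BK: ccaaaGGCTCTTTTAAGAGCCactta
HIST1H3H: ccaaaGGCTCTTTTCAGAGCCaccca
HIST1H4I: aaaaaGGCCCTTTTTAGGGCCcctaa
In H2AFX the annotated transcript of 1592 bases runs on for 1024 bases after the stem-loop. In the MANE transcripts of the HIST1 genes shown it ends 4 to 9 bases after it. HIST1H3H also has a longer annotated transcript, with 769 bases after the stem-loop. HIST1H2AC has 2 coding transcripts, of which only 1 holds the stem-loop, and the counts do not separate them.

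The libraries held between 27572740 and 36272180 counts, and levels are given as CPM (a gene's count times 1000000 over the library total). Untreated replicate 2 stood apart from the other 3 libraries. It held 31258 genes with any count, against 25734 to 27609 in the others. Across the 17479 genes tested, log2 CPM had a Pearson correlation of 0.887 between the untreated replicates and 0.988 between the doxorubicin replicates, where genes are not independent replicates. In untreated replicate 2, 36.6% of all genes tested had their highest CPM of the 4 libraries and 45.0% their lowest. It was at least 2-fold above each other library for 13.6% and at most 1/2 of each other library for 19.1%. Liver markers were nearly absent, against the label of the cells. Over 12 hepatocyte genes the summed CPM was between 0.992 and 6.15, with 6 genes under 10 counts in all, and ALB, which encodes serum albumin, reached at most 3 counts in a library. The summed CPM was 931 to 1594 for 5 squamous epithelial genes, of which KRT17 alone gave 929 to 1587, while KRT5, KRT6A and TP63 stayed under 0.5 CPM in every library. It was 834 to 1153 for 5 fibroblast genes, of which VIM gave 718 to 1011. COL1A1 stood at 46.4 to 84.4 CPM and COL3A1 at 46.0 to 70.0 CPM. DCN stood between 0.469 and 7.69 CPM, and COL1A2 reached at most 0.0693 CPM. The summed CPM was 0.874 to 17.1 for 4 blood genes and 2.39 to 9.76 for 3 endothelial genes. Of the blood genes, CD14 alone gave 16.7 CPM in untreated replicate 2 and PTPRC 0.416 CPM, and CD3E and HBB were at 0 there. The part of other cells in the results was not tested. In these bulk libraries, fewer cells that express a gene and less RNA per cell cannot be told apart.

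H3F3B and H3F3A encode the same protein, histone H3.3, which is placed in active genes and at regulatory elements outside replication. H3F3B (chromosome 17, 75776434 to 75785893) stood at 535 (replicate 1) and 1287 CPM (replicate 2) without the drug, and at 493 (replicate 1) and 467 CPM (replicate 2) with it. H3F3A (chromosome 1, 226061851 to 226072019) reached 242 and 452 CPM without the drug and 211 and 184 CPM with it. Both genes were highest in untreated replicate 2, and both doxorubicin libraries were below both untreated ones, by little against untreated replicate 1. H3F3B took 68.8% of the counts of the pair in untreated replicate 1 (95% exact binomial interval 68.3% to 69.4%), 74.0% in untreated replicate 2 (73.6% to 74.4%), and 70.1% (69.5% to 70.6%) and 71.7% (71.1% to 72.4%) in the doxorubicin libraries. These intervals cover counting error only. H3F3A has 6 annotated pseudogene rows, whose counts amounted to between 18.3% and 21.5% of its own in every library, so that part of its reads may have been counted on copies. The pseudogene with the most counts, H3F3AP4, shares a stretch of 411 bases with the H3F3A transcript. The coding sequences of H3F3A and H3F3B differ more, with 320 of 408 bases identical (78.4%). H3F3B overlaps UNK on the other strand by 1088 bases in the annotation, and UNK stood at 34.9 and 15.96 CPM without the drug and at 39.5 and 33.1 CPM with it.

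**Figure D1:**
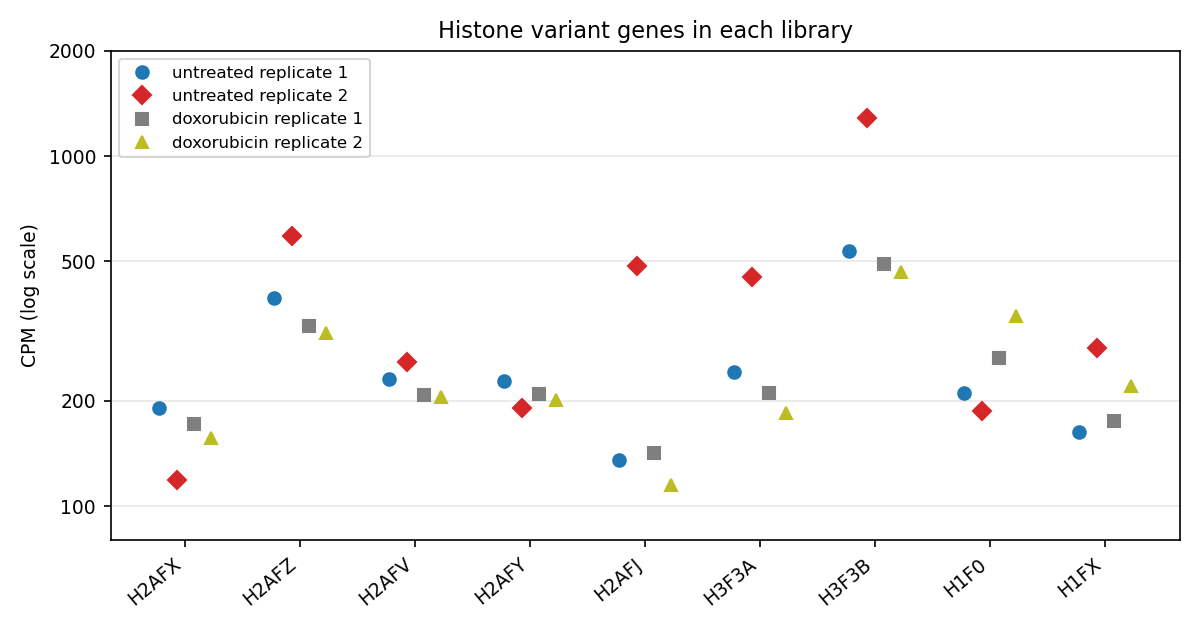
CPM (log scale) of the 9 histone variant genes tested, with 1 point for each library. H2AFJ, H3F3A and H3F3B stand apart upward in untreated replicate 2, H2AFX lies lowest there, and H2AFY2, under 0.3 CPM in each library, is not drawn.

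H2AFZ and H2AFV encode the closely related proteins H2A.Z.1 and H2A.Z.2, which mark nucleosomes beside start sites and at enhancers. H2AFZ (chromosome 4, 99948086 to 99950355) stood at 393 and 591 CPM without the drug and at 327 and 312 CPM with it. H2AFV (chromosome 7, 44826791 to 44848087) reached 230.4 and 257 CPM without the drug and 207 and 206 CPM with it. Both genes were highest in untreated replicate 2 and lower in both doxorubicin libraries than in both untreated ones. The libraries were closer together for H2AFV than for H2AFZ. H2AFZ took 63.0% of the pair's counts in untreated replicate 1, 69.7% in untreated replicate 2, and 61.2% and 60.3% in the doxorubicin libraries. Coding sequences were identical at 309 of 384 bases (80.5%), with a longest shared stretch of 23 bases between the transcripts. Pseudogenes held at most 0.0469% of the counts of H2AFZ and 1.94% of those of H2AFV.

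H2AFX encodes H2A.X, the variant that is phosphorylated around DNA double-strand breaks. H2AFX (chromosome 11, 119093874 to 119095465) stood at 191 and 118 CPM without the drug and at 172 and 156 CPM with it. Untreated replicate 2 was the lowest library and untreated replicate 1 the highest, so the groups overlapped. H2AFJ (chromosome 12, 14774405 to 14778002) encodes H2A.J, a variant known from senescent cells with lasting DNA damage. It stood at 135 and 484 CPM without the drug and at 142 and 115 CPM with it. Untreated replicate 2 was 3.58-fold above untreated replicate 1, which lay between the doxorubicin libraries. It was the member with the widest gap between the untreated libraries.

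H2AFY and H2AFY2 encode the macroH2A proteins, large H2A variants of silent chromatin. H2AFY (chromosome 5, 135334381 to 135399914) stood at 227 and 190.4 CPM without the drug and at 209 and 201 CPM with it. The libraries lay close together, with both treated ones between the untreated ones. H2AFY2 (chromosome 10, 70052544 to 70112282) stood at 0.276 and 0.242 CPM without the drug and at 0.233 and 0.0363 CPM with it. A count of 3, the limit below which no level was read, is worth 0.0827 to 0.109 CPM, so the second doxorubicin library was under it. H2AFY2 overlaps AIFM2 on the other strand by 14060 bases, and AIFM2 had a CPM between 56.3 and 96.9.

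H1F0 encodes H1.0, a linker histone known to accumulate in cells that leave the cell cycle. H1F0 (chromosome 22, 37805229 to 37807432) stood at 209.9 and 188 CPM without the drug and at 266 and 349.8 CPM with it. It was the only member with both doxorubicin libraries above both untreated ones. H1FX (chromosome 3, 129314771 to 129316286) encodes H1.10 and stood at 163 and 283 CPM without the drug and at 175 and 220.3 CPM with it. Untreated replicate 2 was the highest library for H1FX, and the groups overlapped. The antisense gene H1FX-AS1, which overlaps H1FX by 895 bases, stood at 1.08 and 4.74 CPM without the drug and at 0.962 and 1.16 CPM with it. The strand setting of the counting is not given in the sources used here, so reads of a member and of a gene on its other strand may not be told apart.

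Levels of different genes were compared per length, as CPM per kilobase of exon, over the 3 libraries other than untreated replicate 2 (mean ± SD, n = 3). H2AFZ was highest at 395 ± 49.4, followed by H2AFJ at 211 ± 22.3 and H3F3B at 170.1 ± 11.8. Of the next genes, H1F0 (125 ± 32.0), H1FX (123 ± 19.9) and H2AFX (109 ± 11.0) were within the spread of each other. H2AFY (89.6 ± 5.69) lay below H2AFX by more than the sum of their SDs, but was not separated in this way from H1F0. H3F3A (61.0 ± 8.38), H2AFV (30.6 ± 1.97) and H2AFY2 (0.0790 ± 0.0555) followed, each apart from the next. These means join 1 untreated and 2 doxorubicin libraries. In untreated replicate 1 alone the order of the middle genes was H2AFX at 120.1, H1FX at 108, H2AFY at 95.9 and H1F0 at 95.3, so H1F0 came first among them through the treated libraries. With untreated replicate 2 included (n = 4), H2AFZ at 466 ± 147 and H2AFJ at 353 ± 286 were no longer separated by their spread. The value of H2AFV rests on an exon length of 7003 bases joined over its transcripts, which lowers it where the long exons are not used.

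The variants were then set beside the HIST1 genes in untreated replicate 2. As log2 CPM of untreated replicate 2 minus untreated replicate 1 (with 0.5 CPM added), the median over the 9 variants was 0.59, with a range from -0.69 to 1.84. Over the 48 of 55 HIST1 genes with at least 10 counts in all, the median was 2.52 and the range 0.57 to 5.14, and over all genes tested the median was -0.01. A HIST1 gene could reach 10 counts through untreated replicate 2 alone, and over all HIST1 genes with any count the median was 2.04. Untreated replicate 2 was the highest library for 6 of 9 variants, 48 of 48 HIST1 genes and 36.6% of all genes. It was at least 2-fold above each other library for 2 variants (H2AFJ and H3F3B), for 44 HIST1 genes and for 13.6% of all genes. Among the 34 HIST1 genes that passed the filter used for all genes, it was highest for 34 and at least 2-fold above each other library for 31. It was the lowest library for 3 variants (H2AFX, H2AFY and H1F0), for 0 HIST1 genes and for 45.0% of all genes, and at most 1/2 of each other library for 0 variants, against 19.1% of all genes. Thus the HIST1 genes were higher together, while the variants went both ways. As 1 library was set against 1, no test of this difference could be made.

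**Figure D2:**
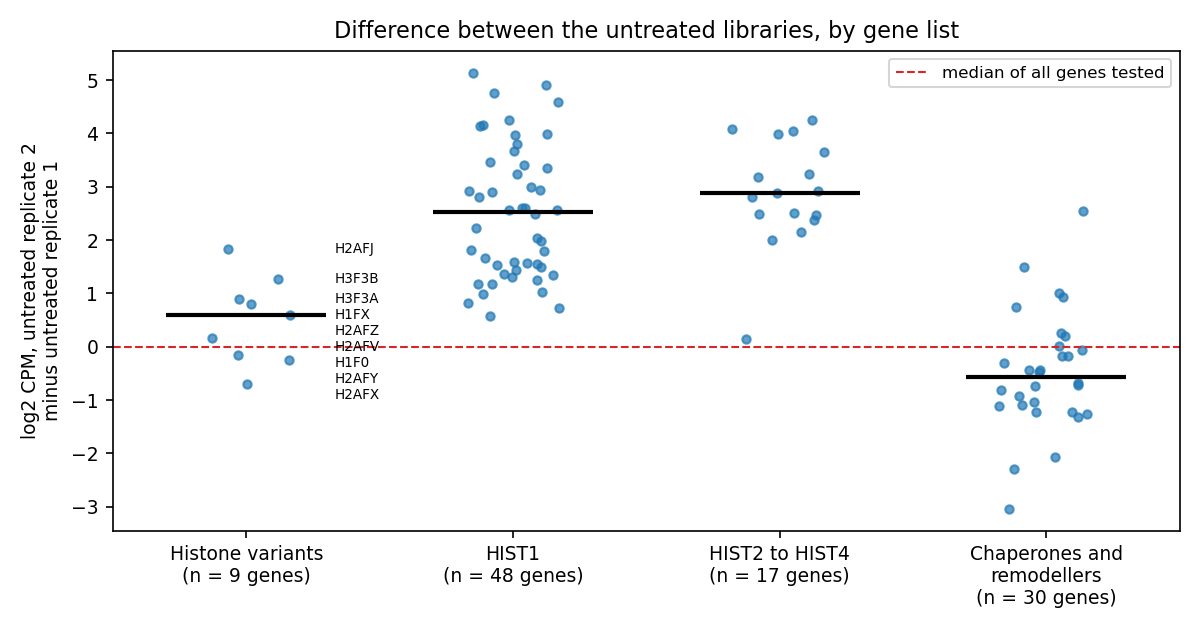
Difference in log2 CPM between the untreated libraries (replicate 2 minus replicate 1) for each gene of 4 lists, with the list median as a black line, the median of all genes tested dashed, and the variants named in order from the top. The HIST1 genes all lie above 0 with a median of 2.52, while the variants spread from -0.69 to 1.84.

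Single HIST1 genes show the size of the gap. HIST1H3H, the H3 gene with the most counts, stood at 4.63 and 153 CPM without the drug and at 4.87 and 3.12 CPM with it, so untreated replicate 2 was 33.1-fold above replicate 1. HIST1H2BK reached 144 and 427 CPM without the drug and 94.6 and 65.8 CPM with it. HIST1H1C had 93.6 and 242 against 134 and 98.0, HIST1H2AC had 69.4 and 157 against 58.7 and 52.4, and HIST1H4I had 31.3 and 111 against 24.5 and 22.4, in the same order. In all 5 genes untreated replicate 2 was the highest library, by 2.26-fold or more over untreated replicate 1. H2AFX, the variant whose transcript holds a stem-loop, was lowest in that library, at 0.619 of untreated replicate 1. Its annotated transcript runs on for 1024 bases after the stem-loop, and the part of the stem-loop in these levels was not tested.

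Summed over all histone genes, the variants made up most histone counts in each library, with the lowest share in untreated replicate 2. That total includes the H2B and H4 genes, classes in which the variants examined have no member. These are shares of counts after purification on poly-T beads, where mRNAs without a poly(A) tail may be under-counted, and not shares of all histone mRNA. The share of the variants was 80.5% (95% exact binomial interval 80.3% to 80.7%) and 53.9% (53.6% to 54.1%) in the untreated libraries, and 79.9% (79.6% to 80.1%) and 82.9% (82.6% to 83.1%) in the doxorubicin libraries. The means were 67.2% ± 18.8 (SD, n = 2) and 81.4% ± 2.12 (SD, n = 2), a difference of 14.2 percentage points that was smaller than the spread of the untreated libraries (exact permutation test, two-sided, p = 0.667, where 0.333 is the smallest p this design allows). The difference was 0.849 percentage points without untreated replicate 2 and 27.5 without untreated replicate 1. The summed CPM of the variants was 1.65-fold higher in untreated replicate 2 than in replicate 1, against 4.59-fold for HIST1 and 13.2-fold for the 19 genes of HIST2 to HIST4. Of these 19, only 15 have a coding transcript in the annotation. The rest, annotated as pseudogenes or as a long non-coding RNA, are also in this sum and in the total of all histone counts. Among H3 genes the variants were 2.24-fold higher and HIST1 32.8-fold. H3.3 still made up 84.2% of H3 counts in that library, and between 98.2% and 98.4% in the others. Among H2A genes the variants were 1.39-fold and HIST1 7.57-fold higher, and the share of the variants was 56.0% there and 90.1% to 90.9% in the others. H1 genes differed least, with 1.26-fold for the variants and 2.64-fold for HIST1. Divided by gene length, the variants' share of all histones was 61.6% and 32.7% without the drug and 61.0% and 65.3% with it.

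**Figure D3:**
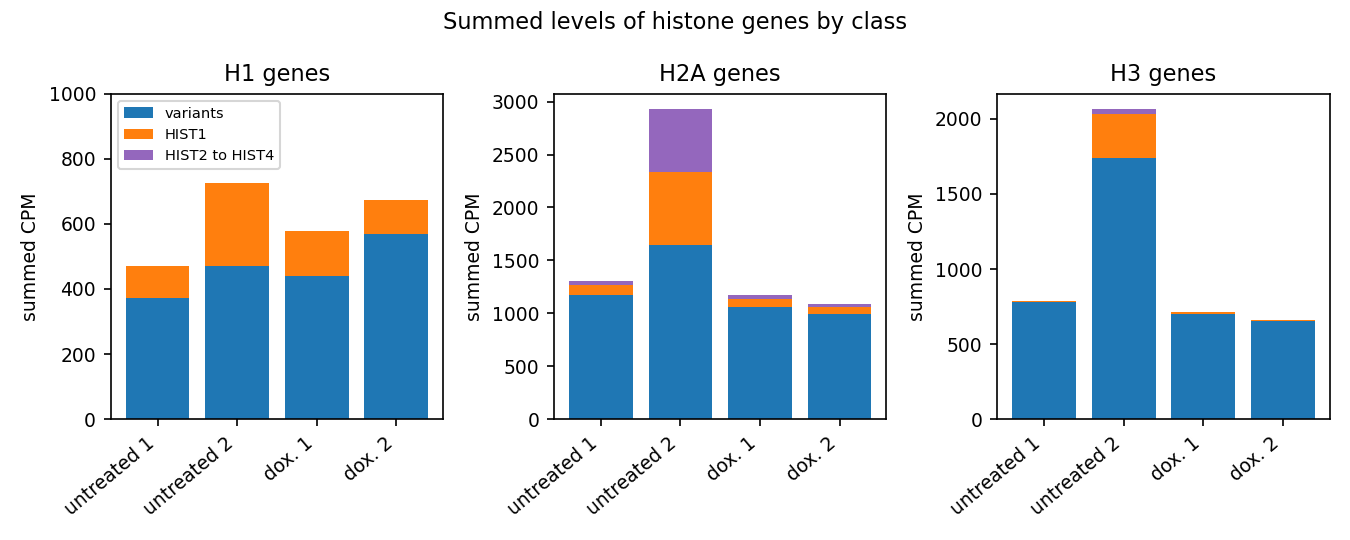
Summed CPM of H1, H2A and H3 genes in each library (dox., doxorubicin), stacked by origin; axes start at 0 and differ in scale. In untreated replicate 2 the HIST1 part is larger in all 3 classes, and the H3 sum still consists mainly of the 2 H3.3 genes, at 84.2%.

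In the comparison of doxorubicin-treated with untreated cells, no variant passed the test. By the quasi-likelihood test of edgeR (Benjamini-Hochberg adjusted p under 0.05 and a fold change of 1 or more in size on the log2 scale), 0 of 9 variants were called, as were 0% of all 17479 genes. 0 variants were also called by DESeq2 (0.515% of all genes), the likelihood ratio test of edgeR (0.366%) and its exact test (0.263%). At an unadjusted p under 0.05 there were 0 variants by the edgeR quasi-likelihood test, against 4.39% of all genes. DESeq2 gave 2 (7.29% of all genes), the exact test 3 (5.90%) and the likelihood ratio test 3 (6.79%). By the quasi-likelihood test, H3F3A (unadjusted p = 0.0517), H2AFZ (0.0548), H3F3B (0.0594) and H2AFJ (0.0657) were close above that limit. Both doxorubicin libraries were below both untreated ones for 4 of 9 variants (H2AFZ, H2AFV, H3F3A and H3F3B), against 11.5% of all genes, and above both for 1 (H1F0), against 30.3%. H2AFY2, which was not tested, was also lower in both, on 1 to 10 counts. The median log2 fold change of the 9 was -0.40, with 8 below 0, and over all genes tested it was 0.01.

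H2AFJ had the largest log2 fold change in size, -1.42 with a standard error of 0.62 (edgeR adjusted p = 0.773). It was followed by H3F3B at -1.08 (0.46), H3F3A at -0.97 (0.39), H2AFZ at -0.78 (0.32), H1F0 at 0.47 (0.29), H2AFV at -0.40 (0.28), H1FX at -0.34 (0.37), H2AFY at -0.18 (0.29) and H2AFX at -0.07 (0.36), with adjusted p between 0.773 and 0.956. Most of these values moved when untreated replicate 2 was left out. Without it, the log2 fold change was -0.22 for H2AFJ, -0.30 for H3F3B, -0.44 for H3F3A and for H2AFZ, -0.30 for H2AFV and H2AFY, -0.37 for H2AFX, 0.40 for H1F0 and 0.13 for H1FX, and 0 variants were called, against 4.44% of the 18356 genes tested. Without untreated replicate 1, by contrast, 3 variants were called as lower, H2AFJ (-2.0), H3F3B (-1.51) and H3F3A (-1.28), where 44.4% of 19606 genes were called and 23.2% as lower. H2AFX and H2AFY then had values of 0.39 and 0.02. A fit without an untreated library assumes that the lone one varies like the doxorubicin libraries. H1F0 was the one variant with a value above 0 in the fit of all 4 libraries and without each of them in turn, at 0.35 to 0.65. It was not called in any of these fits. Without untreated replicate 1 its log2 fold change of 0.63 was under the threshold in size, as were those of H2AFZ (-0.97) and H1FX (-0.61). H2AFZ, H2AFV, H2AFJ, H3F3A and H3F3B had values below 0 in each of the same fits.

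**Figure D4:**
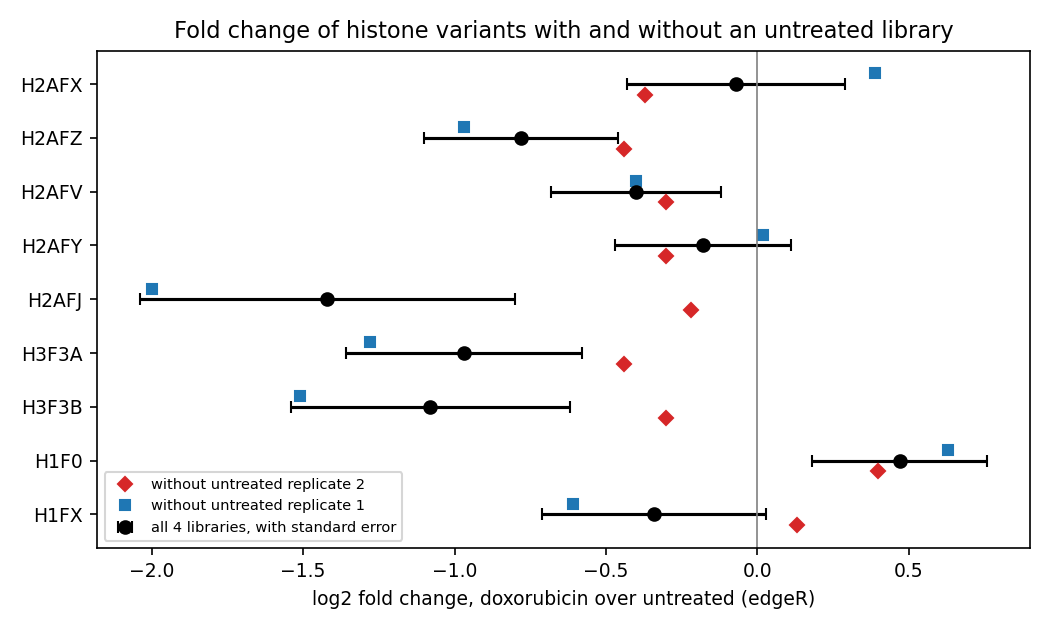
Log2 fold change of each variant tested, doxorubicin over untreated, with its standard error in all 4 libraries (black) and without 1 of the untreated libraries. Without untreated replicate 2 (red) every variant lies between -0.44 and 0.40.

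The genes that deposit or exchange the variants were examined as a list of 30 chaperones and remodellers. By the same edgeR test 0 of 30 were called (0% of all genes), and 1 had an unadjusted p under 0.05 (4.39% of all genes). In untreated replicate 2 their median log2 difference from untreated replicate 1 was -0.58, and it was the lowest library for 19 of 30 (45.0% of all genes), at most 1/2 of each other library for 8 (19.1%), and the highest for 7 (36.6%). The gene with an unadjusted p under 0.05 was ASF1B, a chaperone that carries H3 and H4 and is known to be expressed in dividing cells. It stood at 123 and 719.9 CPM without the drug and at 109.8 and 101 CPM with it. Its log2 fold change was -2.15 with a standard error of 0.80 (edgeR adjusted p = 0.773), and -0.37 without untreated replicate 2. Its paralog ASF1A had 30.0 and 18.5 CPM against 22.96 and 23.2. Without untreated replicate 1, 10 of the 30 genes were called, where 44.4% of all genes were.

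Of the H3.3 chaperones, HIRA stood at 70.0 and 16.4 CPM without the drug and at 54.5 and 48.3 CPM with it. DAXX was at 1.32 and 1.11 against 1.46 and 0.834, and its partner ATRX at 54.0 and 24.97 against 76.2 and 108. DEK had 189 and 81.1 against 173 and 261. Untreated replicate 2 was the lowest library for 6 of the 9 genes of H3.3 deposition, HIRA, ATRX and DEK among them, against 45.0% of all genes. It was the highest for 2, ASF1B and UBN2, which had 14.6 and 28.4 CPM against 19.6 and 24.4. Of the H2A.Z machinery, the catalytic subunits SRCAP (11.0 and 4.12 against 9.70 and 6.71) and EP400 (99.7 and 19.8 against 99.9 and 87.0), the H2A.Z-binding subunit VPS72 (67.7 and 30.8 against 77.6 and 68.2) and ANP32E, which removes H2A.Z (114 and 81.9 against 100.4 and 117), were lowest there too, as were 8 of the 11 genes of H2A.Z exchange. The other 3 were highest there, ZNHIT1 (104 and 292 against 117 and 102), ACTL6A (71.0 and 120.2 against 64.9 and 82.6) and RUVBL2 (322 and 369.5 against 257 and 219). UBN2 and these 3 were named after their values were seen. Lowest in untreated replicate 2 were also the chaperones of replication, CHAF1A (143 and 75.3 against 118 and 116) and NASP (150.2 and 122 against 126 and 136).

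Several measures moved with the difference between the untreated libraries. By exon length, the median log2 difference of all genes (replicate 2 minus replicate 1) was 0.36 under 1000 bases, 0.33 from 1000 to 2000, 0.07 from 2000 to 4000, -0.34 from 4000 to 8000 and -0.70 above, over the 14934 genes with a length (85.4% of those tested). H2AFJ (620 bases) at 1.84, H3F3B (2929 bases) at 1.27 and H3F3A (3481 bases) at 0.90 lay above the upper quartile of their class, which was 0.98 under 1000 bases and 0.77 from 2000 to 4000 bases. H2AFX (1592 bases) at -0.69 lay below the lower quartile of its class, -0.27. The other variants were within the quartiles of theirs. By GC content of the longest transcript, the median difference of all genes went from -0.34 under 40% to 0.23 at 60% and above. H2AFJ and H3F3A lay above the upper quartile of their GC class (0.43), as did H3F3B (0.75) and H2AFZ (0.56). H2AFX lay below the lower quartile of its GC class (-0.52), and the other variants were within the quartiles. The part of gene length or GC content in the result was not tested.

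**Figure D5:**
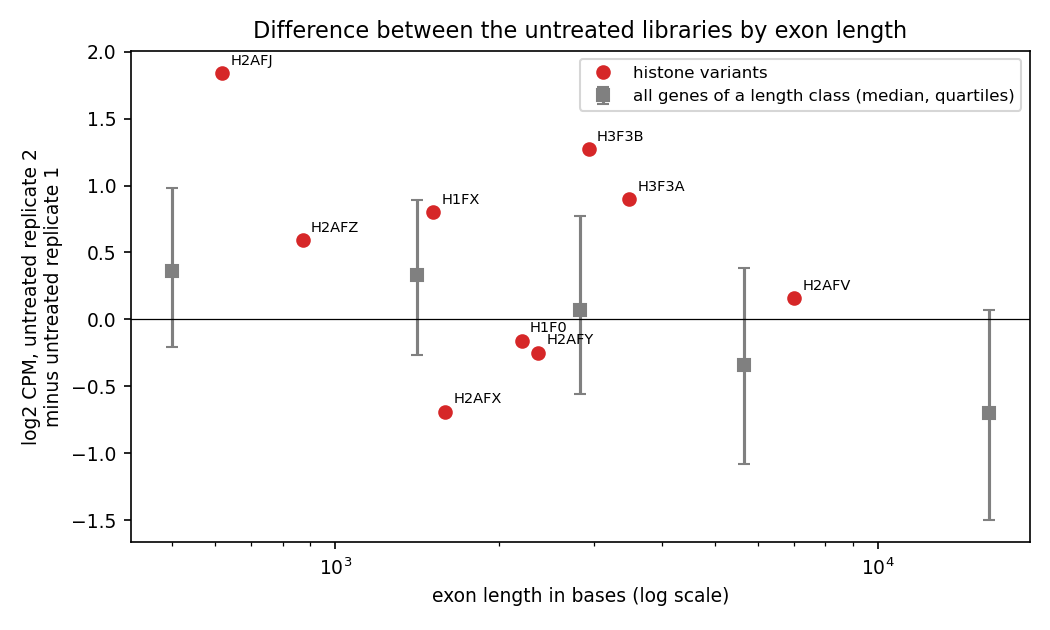
Difference in log2 CPM between the untreated libraries against exon length in bases (log scale) for the 9 variants (red), beside the median and quartiles of all genes in each of 5 length classes (grey, drawn near the middle of the class). The class medians go from 0.36 for the shortest to -0.70 for the longest genes, and H2AFJ, H3F3B and H3F3A lie above the quartiles of their class.

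Among 12 genes of S phase the median of the same difference was 0.58, close to that of the variants, and untreated replicate 2 was highest for 10. PCNA, the sliding clamp of DNA polymerase, stood at 214 and 348 CPM without the drug and at 182 and 196 CPM with it. CCNE2, a cyclin of the entry into S phase, had 6.12 and 15.5 against 5.71 and 5.77, and RRM2, a subunit of ribonucleotide reductase, had 225 and 183 against 184 and 145. All 12 had a log2 fold change below 0 for doxorubicin over untreated, with and without untreated replicate 2. Of RNAs without a poly(A) tail, RN7SL1 stood at 58.6 and 135 CPM without the drug and at 52.6 and 91.2 CPM with it, and RMRP had 18.2 and 14.2 against 10.8 and 15.5. RN7SK, RPPH1 and SCARNA2 were at 0 in all 4 libraries, and RNU4-2 had 3 and 19 counts without the drug and 3 and 6 with it. The part of the cell cycle or of RNA without a poly(A) tail in the higher HIST1 counts was not tested.

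The promoters of the variants (250 bases before to 50 bases after the start, from RefSeq, found for 9 of 10 variants and 50 of 55 HIST1 genes) were searched for 3 motifs on both strands. CCAAT was in 6 of 9 variants, with 4 copies each in H2AFX, H2AFV and H3F3B, against 86.0% of HIST1 and 35.7% of all 27305 promoters. TATAAA was in 4 of 9 (H2AFX, H2AFZ, H3F3B and H1FX), against 66.0% of HIST1 and 11.95% of all. The octamer ATTTGCAT was in 1 of 9 (H3F3B), against 22 of 50 HIST1 genes and 1.80% of all. CCAAT and TATAAA were both held by H2AFX, which was lowest in untreated replicate 2, and by H2AFZ and H3F3B, which were highest there. The member without a promoter was H1F0. The part of these motifs in the levels was not tested.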

How the data were processed

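RNA-seq counts of 4 libraries labelled as HepG2 were used, 2 untreated and 2 treated with doxorubicin. The authors deposited raw read counts per gene, after mapping with HISAT2 and counting with HTSeq according to the submitters' notes, with hg38 as the build and GENCODE release 31 in the file header. Versions and strand setting were not given in the sources used here. Totals were 27572740 to 36272180 counts. The counts were divided by the library total to give CPM, and 0.5 CPM was added before log2. Genes passing filterByExpr (17479) were fitted by edgeR 4.0.16 (R 4.3.3) with TMM factors and the quasi-likelihood test of doxorubicin against untreated, at a Benjamini-Hochberg adjusted p of 0.05 and a log2 fold change of 1 in size, and the code was tested on simulated data. DESeq2 1.42.0, other edgeR tests, normalizations, filters, a block on the replicate number and leaving out each library were alternatives. Exon lengths, stem-loops and gene positions came from GENCODE release 44 on GRCh38, after old symbols had been matched to current ones by the RefSeq synonyms, and promoters from RefSeq. HIST1 genes with at least 10 counts in all were compared. The genes named were the 10 members, the HIST1 gene with the most counts in each class, the main chaperones with any under an unadjusted p of 0.05, the pseudogene with the most counts of a member, neighbours that overlap a member, RNAs without a poly(A) tail and 3 genes of S phase. Members and lists were chosen with earlier results of these data known.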

Additional observations from a re-analysis of the deposited data

How the results depend on the processing

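No variant and no chaperone gene was called in the comparison of doxorubicin with untreated cells under RLE, upper-quartile or no scaling factors, without a filter, with a filter at 1 CPM in 2 libraries or more, by DESeq2, the likelihood ratio test, the exact test or, chosen after seeing the data, the quasi-likelihood fit in its older form. Leaving out 1 library gave 0 to 3 variants and 0 to 10 chaperones called, with the highest values without untreated replicate 1, where 44.4% of all genes were called. With a block on the replicate number 0 variants and 0 chaperones were called, and 20 of all genes. Between libraries of equal number, the deviations had a correlation of 0.0219. This value cannot decide whether such libraries were paired, because untreated replicate 2 stood apart. The labels do not say it either. The log2 fold change changed sign for H2AFX under library totals alone (0.08), and when 1 library was left out, it ranged from -0.37 to 0.39 for H2AFX, from -0.30 to 0.02 for H2AFY and from -0.61 to 0.13 for H1FX. In 127 of 135 single-gene alternatives the direction and the side of the threshold stayed the same. Several of these changed only the edgeR test or a setting of its fit and left the fold changes as they were. Settings under which no gene at all was called could not move a variant across the threshold. The median log2 difference of the HIST1 genes between the untreated libraries was 3.12 with 0.1 CPM added and 1.91 with 1 CPM added, 2.04 over all HIST1 genes with a count, and 2.92 over those passing the filter. That of the variants moved by less than the spread between the doxorubicin replicates in each alternative. The difference in the share of the variants in histone counts, 14.2 percentage points between the groups, was 16.01 per length and 10.8 with HIST1 alone in the total. Without 1 library, a choice made after seeing the data, it went from 0.849 (without untreated replicate 2) to 27.5 (without untreated replicate 1), so it rested on which untreated library was kept. H2AFY2, with 1 to 10 counts a library, was too low to pass either filter on counts. It was tested only without a filter, where 0 variants were called.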
